A study of Mus musculus with 12 samples.

Results

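Cells that never received auxin were compared across the 2 ends of the experiment: the DMSO control of the 5-day comparison (3 libraries) against the DMSO control of the withdrawal comparison (3 libraries), 6 of the 12 libraries in all. The study sequenced poly(A) RNA of mouse E14 embryonic stem cells with the genotype RACK1-AID/RPS26-Tir1. All 4 groups carry both fusions: RACK1, a protein of the small ribosomal subunit, bears a degron, and the auxin receptor TIR1 is fused to the ribosomal protein RPS26. The plant hormone auxin (indole-3-acetic acid, IAA) then directs RACK1 to destruction on the ribosome, and DMSO is the solvent given without it. The 5-day control had 5 days of DMSO and stood beside cells given IAA for 5 days. The later control stood beside cells that had 5 days of IAA and then 10 days without it, and is called the 10-day control here. The labels do not say when DMSO was removed from it, whether replicates were separate cultures, or whether the line is 1 clone.

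The difference between the controls is called drift below as a name for the quantity, 10-day control minus 5-day control. The 2 times were deposited in separate tables, each normalized on its own. Time in culture, library preparation and normalization therefore cannot be told apart, and no test was made across the tables. Each table gives 1 transcript per gene with its mean level over 6 libraries in log2 CPM (counts scaled to library size) and its log2 fold. The level of a control is that mean minus 0.5 of the fold, with a positive fold read as higher with IAA, which the headers do not state. Of 18120 genes in both tables, the 11416 with a mean of at least 1 log2 CPM in each (63.0%) were used. The limit stands for about 46.7 reads per library at 5 days and 42.4 at 10 days, by a depth estimated as described under processing. The standard error (SE) given with a level or a drift is implied by the fold and the moderated t of each table, and covers no error between tables. Values of single libraries were not used here, so group levels are given.

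Mouse embryonic stem cells move between a naive state, held by LIF signalling and factors such as Nanog, Klf2 and Esrrb, and a formative state that precedes differentiation, marked by Pou3f1, Dnmt3b and Sox3. FGF acting through the kinase ERK, Nodal and WNT shift cells between these states. Cultures also hold rare cells with genes of the 2-cell embryo, and can contain cells that have begun to differentiate. In bulk RNA, fewer cells of a type and less RNA per cell cannot be told apart.

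Most genes had similar levels in both controls, and 934 differed by at least 1 log2. Across the 11416 genes the levels had a Pearson r of 0.957 and a Spearman rho of 0.954, as a description of genes and not of replicates. The median drift was 0.02 log2 with quartiles of -0.35 and 0.39, and 7280 genes (63.8%) lay within 0.5. The median implied SE of a drift was 0.11, with quartiles of 0.09 and 0.14. In the 10-day control 508 genes (4.45%) were at least 1 log2 higher and 426 (3.73%) at least 1 log2 lower. Of these 934 genes, 932 had a drift of at least 3 implied SEs. A drift of at least 2 was reached by 10 genes upward and 25 downward. At 0.5 log2 the counts were 2180 (19.096%) higher and 1956 (17.134%) lower, and these shares are the background for the gene lists below.

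**Figure D1:**
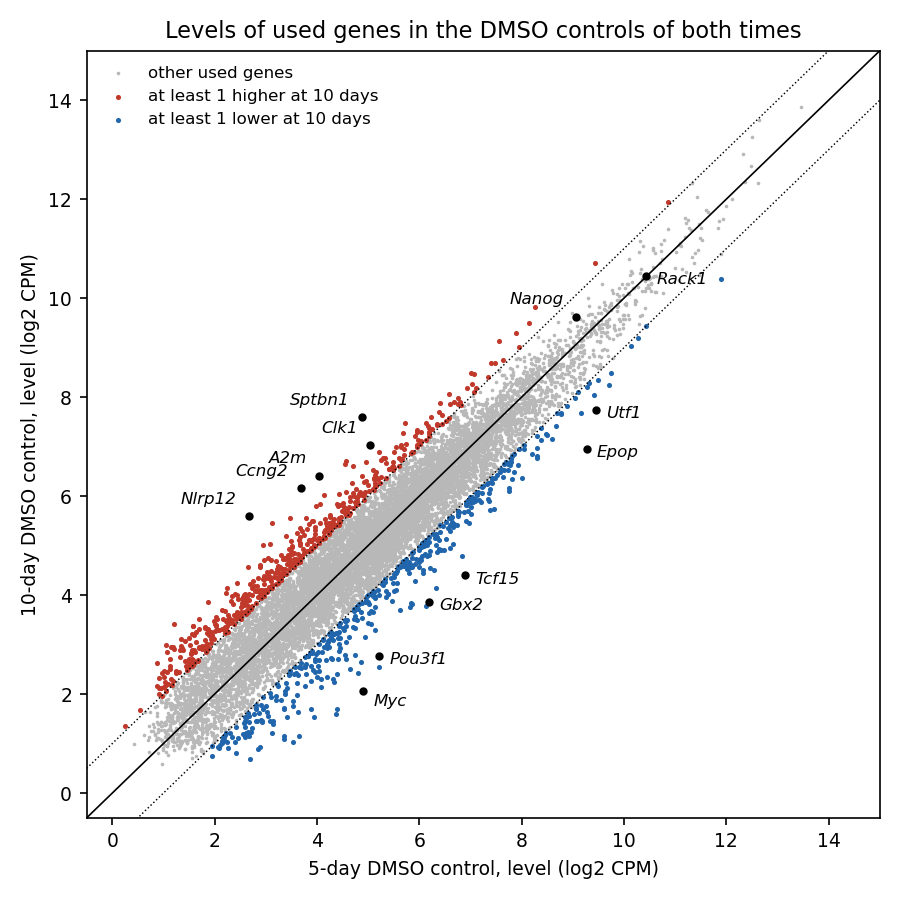
Level of each of the 11416 used genes in the 5-day control (horizontal, log2 CPM) and the 10-day control (vertical, log2 CPM), with equality as a solid line and 1 log2 as dotted lines. Red points are the 508 genes at least 1 higher at 10 days, blue points the 426 at least 1 lower, and black points are named genes.

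For scale, the same 11416 genes held 197 with an authors' log2 fold of at least 1 with 5 days of IAA and 73 at or below -1, and 3 and 2 after withdrawal, in the authors' deposited tables. Over all 18765 genes of the 5-day table the authors' limma called 2524 (13.5%) higher and 2265 (12.1%) lower with IAA at a Benjamini-Hochberg adjusted p under 0.05. Over the 18712 genes of the 10-day table limma called 0 (0%) in either direction, with 805 at an unadjusted p under 0.05. No other tool could be run on the tables. The 5-day fold shares the 5-day control with the drift, so both are given side by side and not correlated.

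Drift followed base composition across the transcriptome. Genes higher in the 10-day control had AT-rich transcripts with a median GC content of 42.4%, those lower had 58.4%, and all used genes had 50.5%. The contrast held in every part of the transcript. Coding sequences had a median GC content of 45.2% among the higher genes, 61.4% among the lower and 52.9% among all, and at the third codon position, where many base changes leave the amino acid unaltered, the medians were 45.8%, 70.8% and 60.6%. The 3′ untranslated regions stood at 38.0%, 51.1% and 44.7%, and the 5′ untranslated regions at 60.0%, 66.9% and 65.3%. The higher genes also had longer transcripts, with a median of 3786 bases against 2282 for the lower and 3019 for all.

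The start of the coding sequence is shown for 3 of the genes furthest apart in each direction that also had a promoter entry, because the composition contrast is widest at the third codon position. Sequences are the first 40 codons of the transcripts in GENCODE M21, with G or C at the third codon position in capitals. Id3, Cebpb and Cntfr were lower at 10 days, and Nlrp12, Sptbn1 and Ccng2 were higher.
Id3: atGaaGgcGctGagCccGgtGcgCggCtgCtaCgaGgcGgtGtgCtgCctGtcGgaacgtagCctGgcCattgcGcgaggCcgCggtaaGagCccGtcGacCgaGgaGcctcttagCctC
Cebpb: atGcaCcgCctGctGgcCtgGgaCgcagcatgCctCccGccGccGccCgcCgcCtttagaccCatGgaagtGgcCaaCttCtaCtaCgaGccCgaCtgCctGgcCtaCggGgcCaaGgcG
Cntfr: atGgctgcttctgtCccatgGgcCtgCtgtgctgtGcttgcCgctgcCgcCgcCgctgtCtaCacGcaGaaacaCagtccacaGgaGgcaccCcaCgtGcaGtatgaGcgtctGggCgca
Nlrp12: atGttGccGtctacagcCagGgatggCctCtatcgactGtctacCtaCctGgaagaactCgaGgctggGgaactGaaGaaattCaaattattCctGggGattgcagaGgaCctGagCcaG
Sptbn1: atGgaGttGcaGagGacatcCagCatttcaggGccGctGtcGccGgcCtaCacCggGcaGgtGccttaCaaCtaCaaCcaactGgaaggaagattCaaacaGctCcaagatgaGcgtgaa
Ccng2: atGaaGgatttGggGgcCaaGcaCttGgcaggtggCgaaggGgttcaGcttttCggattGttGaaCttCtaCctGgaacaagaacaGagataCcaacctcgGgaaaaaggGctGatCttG
Of the 40 such positions shown, 33 are G or C in Id3, 35 in Cebpb and 24 in Cntfr, against 25 in Nlrp12, 27 in Sptbn1 and 25 in Ccng2. The stretches shown therefore do not separate the groups, since Cntfr has fewer than each of the higher genes. Over the whole coding sequence the share was 76.7% in Id3, 96.3% in Cebpb and 68.6% in Cntfr. It was 62.8% in Nlrp12, 59.6% in Sptbn1 and 54.8% in Ccng2. By this measure the 3 higher genes were near the median of all genes and the 3 lower ones above it.

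By quartile of transcript GC content, of 2854 genes each, the median drift was 0.46 below 45.6% GC, 0.14 up to 50.5%, -0.13 up to 55.2% and -0.43 above. The poorest quartile held 343 genes at least 1 higher and 15 at least 1 lower, and the richest held 11 and 327. Neither comparison within a time had such an order: the median authors' log2 fold of the deposited tables lay between -0.04 and 0.00 in all GC quartiles at 5 days and between -0.02 and 0.01 at 10 days. Within 1 table the 2 groups were therefore level in composition, and the composition difference lay between the tables. A smooth trend on GC content and length together took 38.6% of the variance of drift, and GC content alone 37.8%. With that trend removed, 172 of the 508 higher genes and 138 of the 426 lower genes still differed by at least 1. Which share of the trend is biological and which technical was not tested, so each group of genes below is given with its value after the trend is removed.

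**Figure D2:**
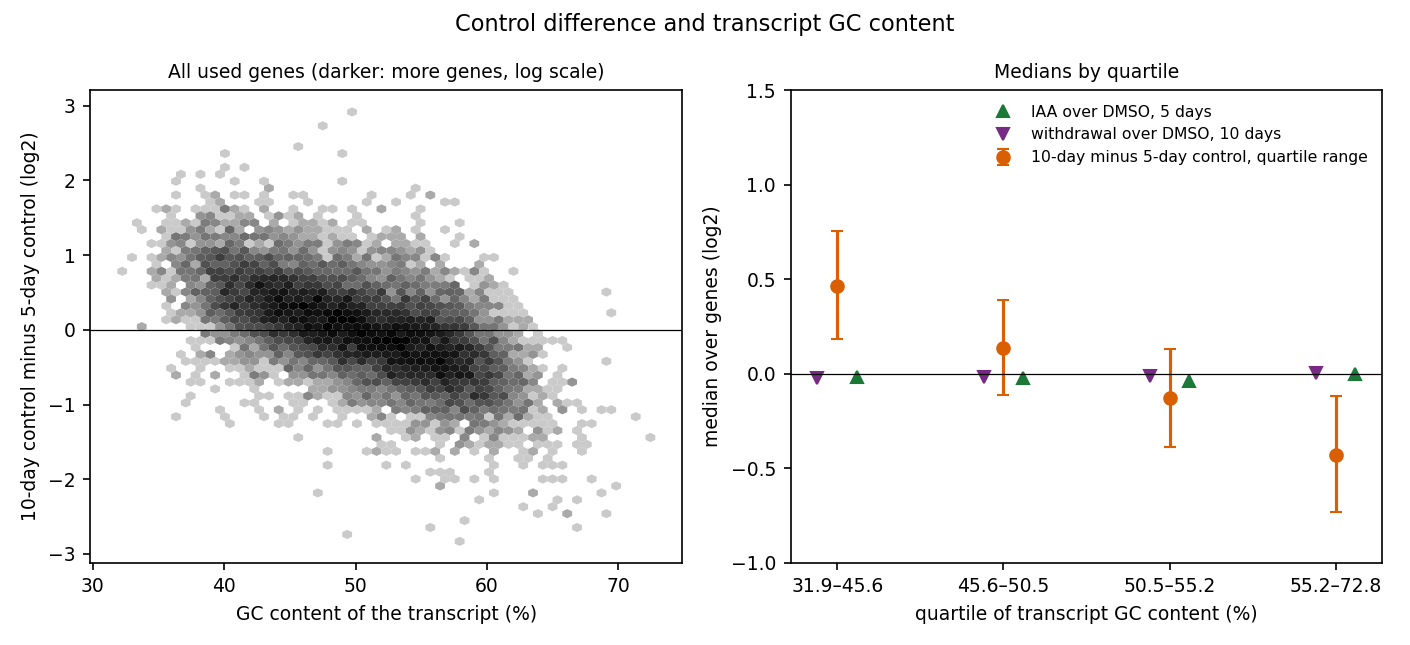
Left, drift (10-day minus 5-day control, log2) against transcript GC content in percent for the 11416 used genes, darker where more genes lie, on a log scale. Right, medians by GC quartile, with the quartile range for drift, which runs from 0.46 to -0.43, while the authors' folds within each time stay near 0.

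Before the results by gene, the identity of the cells was checked against 15 embryonic stem cell genes, all of which passed the level limit. Pou5f1, the factor that pluripotency depends on, stood at 10.76 ± 0.03 log2 CPM (implied SE) in the 5-day control and 10.11 ± 0.06 in the 10-day control. Sox2, its partner, stood at 9.26 ± 0.04 and 8.71 ± 0.06. Nanog stood at 9.07 in the first control and 9.63 in the second. Both controls thus expressed the genes that define the labelled cell type. Their drift was uneven, with 11 of 15 below 0 and 4 above. At 0.5 log2, 6 were lower and 3 higher. None was at least 1 higher, and Utf1 was the only one past 1 downward (-1.70 ± 0.07). The median was -0.33, or -0.31 with the composition trend removed. Utf1, a chromatin factor of pluripotent cells, stood at 9.45 and 7.75, and -0.77 of its drift remained after trend removal. The others at least 0.5 lower were Trim28 (-0.997 ± 0.07), Sall4 (-0.87 ± 0.07), Lin28a (-0.75 ± 0.08), Pou5f1 (-0.65 ± 0.07) and Sox2 (-0.55 ± 0.07). Upward lay Fgf4, the FGF ligand that stem cells make themselves (0.69 ± 0.09), Tdgf1, a Nodal co-receptor (0.65 ± 0.08), and Nanog (0.56 ± 0.08).

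The fusion genes themselves showed little drift at the RNA level. Rack1 was at 10.43 ± 0.03 log2 CPM in the 5-day control, 10.26 in IAA, 10.46 ± 0.06 in the 10-day control and 10.40 after withdrawal, a drift of 0.02 ± 0.07. Rps26 was at 10.23, 10.18, 9.95 and 9.74 in the same order, a drift of -0.28 ± 0.08. Degradation acts on RACK1 protein, which RNA-seq does not measure, so neither value checks the depletion.

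The 12 genes at the lower end of the drift are given first. Myc, which drives growth and self-renewal (chromosome 15, 61985391 to 61990374, GRCm38, plus strand), stood at 4.90 ± 0.08 log2 CPM in the 5-day control and 5.15 with IAA. It stood at 2.06 ± 0.20 in the 10-day control and 2.29 after withdrawal. Both groups of the later time lay below both of the earlier one, and the drift was -2.83 ± 0.22, a 7.12-fold lower level in CPM. The composition trend carried little of it, since -2.40 remained.

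Id3, an inhibitor of helix-loop-helix factors induced by BMP (chromosome 4, 136143497 to 136145755), was next. Its level was 4.39 ± 0.10 in the 5-day control, 5.14 with IAA, 1.69 ± 0.26 in the 10-day control and 1.63 after withdrawal. The drift of -2.70 ± 0.27 was -2.39 with the trend removed. Cebpb, a leucine zipper factor of stress and differentiation (chromosome 2, 167688915 to 167690418), stood at 5.20 ± 0.05, 5.73, 2.55 ± 0.16 and 2.32 in that order of groups. Its drift was -2.65 ± 0.17. With the trend removed it was -1.41, and Cebpb is the GC-richest of the coding sequences printed above.

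The other 9 of the 12 lowest genes include Sox3, Pou3f1, Foxd3 and Gbx2, described further on. Cntfr, the receptor of ciliary neurotrophic factor, stood at 3.53 ± 0.16 in the 5-day control and 1.03 ± 0.19 in the 10-day control. Tcf15, a helix-loop-helix factor that primes stem cells for differentiation, stood at 6.89 ± 0.05 and 4.40 ± 0.11, with a drift of -2.49 ± 0.12. Epop, a subunit of the chromatin complex PRC2, stood at 9.27 ± 0.05 and 6.96 ± 0.10, a drift of -2.31 ± 0.11. Prr7 (-2.41 ± 0.19) and Tmem238 (-2.39 ± 0.19) completed the set. All 12 were lower in both groups at the later time than in both at the earlier. All 12 still drifted by -1 or further with the composition trend removed, between -2.40 and -1.04, although their GC contents ran from 55.6% to 69.0%.

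**Figure D3:**
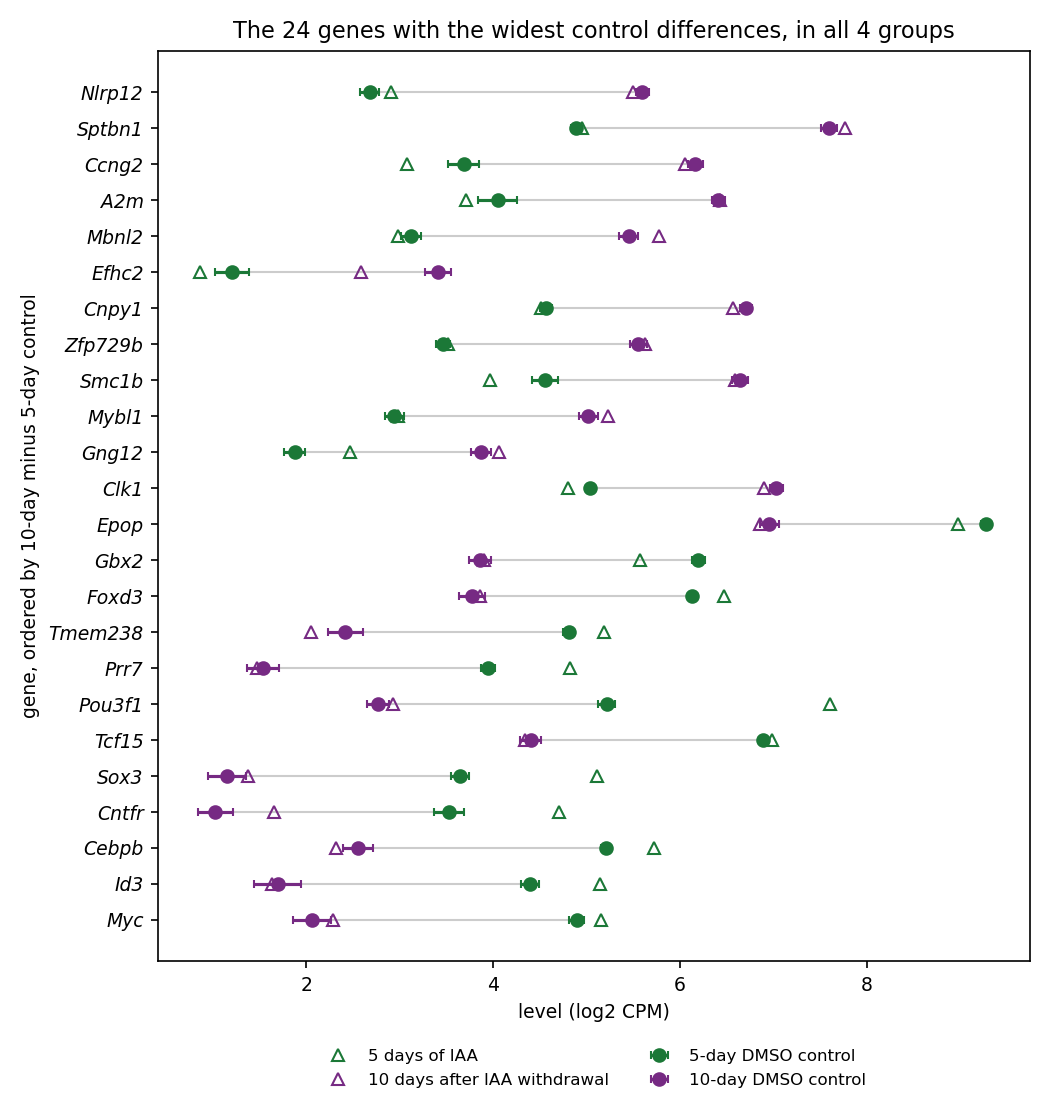
Level in log2 CPM of the 12 genes with the largest drift upward and the 12 with the largest downward, in the 5-day control and the 10-day control (filled circles with implied SE), with IAA at 5 days and 10 days after withdrawal (open triangles). In all 24 genes both purple symbols lie on 1 side of both green ones.

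Formative and primed genes lay lower in the 10-day control. Of 24 listed symbols, which include Oct6 as an alias of Pou3f1, 23 were found and 20 were used. At least 1 lower were 8 of 20 against a background of 3.73%, 16 of 20 were at least 0.5 lower against 17.134%, and 0 at least 0.5 higher. The median drift was -0.93, and -0.84 with the composition trend removed, beside 0.02 for all genes. The list was chosen with this pattern already known, so its counts are a description.

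Pou3f1 (OCT6), a POU factor of the formative epiblast (chromosome 4, 124656807 to 124660655), stood at 5.22 ± 0.09 log2 CPM in the 5-day control, 7.60 with IAA, 2.77 ± 0.12 in the 10-day control and 2.92 after withdrawal. The controls differed by -2.45 ± 0.15, as much as IAA and DMSO did at 5 days in the other direction (2.39 ± 0.13, adjusted p = 1.76e-07 by limma in the authors' deposited table). Sox3, a SOXB1 factor of epiblast and neural plate on the X chromosome, stood at 3.65 ± 0.10, 5.11, 1.15 ± 0.20 and 1.38 in the same order. Its drift was -2.50 ± 0.23, and its 5-day fold in the authors' deposited table was 1.46 ± 0.14 (limma adjusted p = 9.44e-06).

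Foxd3, a forkhead factor needed for the pluripotent epiblast, stood at 6.13 ± 0.05, 6.48, 3.77 ± 0.14 and 3.86, with a drift of -2.36 ± 0.15. Lef1, a WNT effector, stood at 5.92, 6.33, 4.28 and 4.53, with a drift of -1.64 ± 0.11. The de novo DNA methylases are on the same list. Dnmt3b stood at 8.29, 9.46, 6.96 and 6.84 (drift -1.33 ± 0.09), and Dnmt3a at 7.17, 7.87, 6.22 and 6.25 (drift -0.95 ± 0.09). In these 6 genes both later groups lay below both 5-day groups, however the folds are read. Which 5-day group lay in the middle depends on that reading: with it reversed the drift of Pou3f1 was -4.68 and that of Dnmt3b -2.62. Otx2, which starts the formative programme, was the exception of the list at 0.05.

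Of naive genes all 26 were used: 5 were at least 0.5 higher and 4 at least 0.5 lower, shares near the background, 0 were at least 1 higher and 2 at least 1 lower. The median drift was 0.22, 0.10 with the trend removed and 0.81 with the folds read the other way. Pecam1, an adhesion molecule (0.74), Tfcp2l1, a LIF-dependent factor (0.72), and Tet2, which oxidises methylated DNA (0.52), were upward together with Nanog and Fgf4. Esrrb stood at 9.50 log2 CPM in the 5-day control, 8.69 with IAA, 9.41 in the 10-day control and 9.44 after withdrawal, a drift of -0.10 ± 0.09, with the IAA cells lower on this reading of the folds. Gbx2, Klf2, Dppa2 (-0.86 ± 0.12) and Nr0b1 (-0.80 ± 0.10) went the other way. Gbx2, a homeobox factor downstream of LIF, stood at 6.20 ± 0.07, 5.58, 3.86 ± 0.12 and 3.90, a drift of -2.33 ± 0.14. Klf2 stood at 9.17, 8.65, 7.68 and 7.66, a drift of -1.48 ± 0.08, of which -0.79 remained after trend removal.

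Among the signalling lists, targets of ERK, Nodal and BMP, WNT and LIF had medians below 0, except that the LIF median turned to 0.16 with the folds read the other way. Of 18 ERK immediate early and feedback genes used, 6 were at least 1 lower and 1 at least 1 higher, with 12 at least 0.5 lower and 2 higher. Their median was -0.87, and -0.53 with the trend removed. Besides Myc, the AP-1 subunit Jund stood at 7.75 log2 CPM in the 5-day control and 6.11 in the 10-day control (-1.64 ± 0.08). Only -0.41 of that was left after trend removal. Ier2 stood at 7.82 and 6.35 (-1.47 ± 0.09) and Junb at 5.63 and 4.57 (-1.07 ± 0.10). With the trend removed Ier2 was at -0.82 and Junb at -0.27. Egr1 (-0.99), Spry4 (-0.96) and Dusp6, the phosphatase that switches ERK off (-0.37), were also below 0. Ier3, an immediate early gene of cell survival, went against them, at 2.66 in the first control and 4.57 in the second (1.91 ± 0.19, and 2.17 with the trend removed).

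Of 15 Nodal and BMP targets, 9 were at least 0.5 lower and 1 higher, and the median was -0.61 (-0.41). Lefty1, the Nodal antagonist that Nodal induces, stood at 7.43 in the 5-day control, 8.69 with IAA, 6.26 in the 10-day control and 5.98 after withdrawal (-1.16 ± 0.12). Nodal itself stood at 5.92 and 5.10 in the controls (-0.83 ± 0.10). Of 10 WNT targets used, 7 were at least 0.5 lower and 0 higher, with a median of -0.68 (-0.48). Notum, a secreted WNT inhibitor, stood at 5.50 and 4.08 (-1.42 ± 0.12), and Tcf7l1, a repressor of naive genes, at 6.16 and 5.01 (-1.15 ± 0.09). Sp5, a direct WNT target of the primitive streak, is left out by the level limit because its 10-day mean is under 1. It stood at 3.30 ± 0.10 in the 5-day control, 3.01 with IAA, -0.41 ± 0.30 in the 10-day control and 0.18 after withdrawal. Its difference of -3.72 ± 0.31 cannot be ranked with the used genes, which had to pass the limit at both times. Sp5 is 1 of 366 genes that passed it at 5 days only, and the others were not ranked.

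Of 14 LIF and STAT3 targets, 5 were at least 0.5 lower and 1 higher (median -0.35, or -0.19 with the trend removed). Bcl3, a nuclear cofactor induced by LIF, stood at 6.43 and 4.91 (-1.52 ± 0.09) and the kinase gene Pim3 at -0.90 ± 0.08. With the trend removed Bcl3 was at -0.71 and Pim3 at -0.19. Socs3, the feedback inhibitor of LIF signalling, had a drift of 0.24.

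The upper end of the drift held genes of varied roles, among them splicing regulators and meiotic genes. Nlrp12, a cytosolic receptor of the NLR family (chromosome 7, 3218784 to 3249740, minus strand), stood at 2.68 ± 0.10 log2 CPM in the 5-day control and 2.91 with IAA. It stood at 5.60 ± 0.07 in the 10-day control and 5.50 after withdrawal. The drift of 2.92 ± 0.12 is a 7.55-fold higher level in CPM, and 2.82 remained after trend removal. Sptbn1, the beta spectrin of the membrane skeleton and a SMAD adaptor (chromosome 11, 30099395 to 30268175), stood at 4.88 ± 0.05, 4.95, 7.59 ± 0.09 and 7.76 in the same order of groups. The drift was 2.71 ± 0.10.

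Ccng2, an unconventional cyclin expressed when growth stops (chromosome 5, 93267257 to 93276231), stood at 3.69 ± 0.16, 3.08, 6.16 ± 0.08 and 6.05, with a drift of 2.48 ± 0.18. A2m, a secreted protease inhibitor, stood at 4.05 ± 0.21, 3.71, 6.41 ± 0.07 and 6.43 (2.36 ± 0.22). In all of these the groups of 1 time lay close together and far from those of the other. Mbnl2, a splicing regulator, stood at 3.12 ± 0.11 in the first control and 5.45 ± 0.10 in the second (2.33 ± 0.15). Clk1, a kinase of splicing factors, stood at 5.04 ± 0.05 and 7.03 ± 0.07 (1.99 ± 0.09). Smc1b, the cohesin subunit of meiosis, stood at 4.56 ± 0.14 and 6.64 ± 0.08 (2.08 ± 0.16), and Mybl1, a factor of male meiosis, at 2.94 and 5.02 (2.08 ± 0.15). Efhc2 (2.20 ± 0.23), Cnpy1 (2.14 ± 0.09), Zfp729b (2.09 ± 0.12) and Gng12, a G protein subunit (1.99 ± 0.16), made up the 12. All 12 drifted by 1 or more with the trend removed, between 1.27 and 2.82.

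Of the motifs searched in promoters of the drifting genes, the CCAAT box had the widest gap in share between higher and lower genes. Promoter windows of 250 bases before to 50 after the start came from RefSeq on GRCm38.p6, and matched 387 of the 508 higher genes, 310 of the 426 lower and 9001 of all used. The CCAAT box (CCAAT, both strands) was in 46.5% of higher, 34.5% of lower and 39.9% of used promoters. The cAMP response element (TGACGTCA) was in 3.88%, 2.90% and 3.47%, the E-box of MYC-type factors (CACGTG) in 10.1%, 9.68% and 10.8%, and the TATA box (TATAAA, both strands) in 8.53%, 8.71% and 6.34%. Over all 27025 promoters of the table the shares were 38.0%, 1.85%, 7.24% and 14.2% for the CCAAT box, the response element, the E-box and the TATA box. The median number of CpG pairs was 18, 22 and 22 in higher, lower and used promoters, and the median GC content was 59.3%, 62% and 61.3%. Whether the motif shares follow base composition was not tested. The windows of 1 gene at each end that hold such letters are shown as examples, with the motifs in capitals: the response element and the E-box in Foxd3 (chr4:99656049-99656348, plus strand), and a CCAAT box on each strand in Mbnl2 (chr14:120275419-120275718, plus strand).
Foxd3: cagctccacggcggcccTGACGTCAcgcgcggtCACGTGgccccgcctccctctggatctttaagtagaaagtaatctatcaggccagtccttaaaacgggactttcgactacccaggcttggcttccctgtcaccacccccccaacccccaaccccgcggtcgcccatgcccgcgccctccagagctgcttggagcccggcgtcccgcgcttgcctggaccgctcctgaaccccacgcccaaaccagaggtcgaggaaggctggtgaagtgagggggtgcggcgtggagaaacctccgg
Mbnl2: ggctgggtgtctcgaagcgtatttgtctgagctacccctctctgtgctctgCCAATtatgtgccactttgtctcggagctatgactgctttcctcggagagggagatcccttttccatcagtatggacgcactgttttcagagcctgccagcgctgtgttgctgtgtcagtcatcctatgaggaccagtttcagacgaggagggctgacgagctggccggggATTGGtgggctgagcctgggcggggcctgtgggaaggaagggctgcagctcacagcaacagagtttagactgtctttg
A match is a description of letters in the window and not evidence of binding.

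Stress and growth-arrest genes drifted in both directions. Of 32 used p53 targets, 6 were at least 1 higher against the background of 4.45% and 1 at least 1 lower, with 12 and 5 at 0.5 log2, and a median of 0.32 (0.35 with the trend removed). With the folds read the other way the median was -0.05, and with the mean over all 6 libraries of each time 0.06, so the list's direction depends on the reading. Trp53inp1, an autophagy and death effector, stood at 5.73 log2 CPM in the 5-day control, 6.59 with IAA, 7.47 in the 10-day control and 7.53 after withdrawal (1.75 ± 0.10). Rrm2b, the ribonucleotide reductase subunit of DNA repair, stood at 2.35, 2.33, 3.99 and 4.21 (1.64 ± 0.17). Eda2r, a death receptor, stood at 3.92, 4.49, 5.49 and 5.66 (1.57 ± 0.12). Polk, a translesion polymerase (1.38 ± 0.15), Ccng1 (1.37) and Gadd45b (1.32) were the others past 1. The arrest gene Cdkn1a was at 0.73 and the p53 ligase Mdm2 at 0.36, while the pro-apoptotic Bbc3 and Bax were both at -0.72 and Sesn2, a sensor of leucine, at -1.36 ± 0.10.

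ATF4 targets, which answer amino acid shortage, lay lower. Of 35 used, 15 were at least 0.5 lower and 3 higher, 6 at least 1 lower and 0 higher, with a median of -0.36 (-0.26). Chac1, which breaks down glutathione, stood at 5.84 in the first control and 3.85 in the second (-1.99 ± 0.17), and Trib3, a feedback inhibitor of the response, at 6.47 and 4.91 (-1.56 ± 0.11). Atf4 itself was at -0.68. The list was not uniform, since Asns, asparagine synthetase, was at 0.64 and Ddit3 (CHOP) at 0.79.

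Hypoxia and glycolysis genes lay higher in the 10-day control. Of 32 used, 15 were at least 0.5 higher and 0 lower, 5 at least 1 higher and 0 lower, with a median of 0.42 that was 0.54 with the composition trend removed. Ero1l, the oxidase of disulfide formation and a HIF target, stood at 6.41 log2 CPM in the 5-day control, 5.99 with IAA, 7.89 in the 10-day control and 7.95 after withdrawal (1.48 ± 0.12). P4ha1, a collagen prolyl hydroxylase, stood at 5.54, 5.54, 6.99 and 6.94 (1.45 ± 0.14). Bnip3, a mitophagy receptor, stood at 7.64, 7.39, 8.76 and 8.56 (1.12 ± 0.14). Pdk1, Ndrg1, Pgk1, Egln3, Vegfa and those above spread between 0.20 and 1.48. Ldha (0.07), Eno1 (0.07) and Pkm (-0.01) were alike in both controls within 0.1. The glycolytic enzymes were not uniform: Aldoc had a mean over all 6 libraries of 4.92 log2 CPM at 5 days and 6.27 at 10 days. These means pool the control with the treated or withdrawn libraries, so their gap is not a drift like those above.

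Cholesterol synthesis also lay higher: 11 of 24 used were at least 0.5 higher and 2 lower, 3 at least 1 higher and 0 lower, with a median of 0.39, unchanged at 0.39 after trend removal. Msmo1, a sterol methyl oxidase, stood at 5.64 and 6.99 in the controls (1.35 ± 0.10), Stard4, a sterol carrier, at 5.16 and 6.49 (1.33 ± 0.11), and Hmgcs1, which makes HMG-CoA, at 7.35 and 8.40 (1.05 ± 0.07). Lysosome and autophagy genes had a median of 0.21 (0.25), with Lamp2, the receptor of chaperone-mediated autophagy, at 1.41 ± 0.10 and Tfeb, a factor that induces lysosomal genes, at -1.21 ± 0.26. Tfeb is given by a transcript of 371 bases and stood at 1.03 log2 CPM in the 10-day control, near the level limit. Its drift was -0.45 with the trend removed, and -0.45 with the folds read the other way.

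The respiratory chain split by the genome that encodes it, until composition was taken into account. Of 13 messenger RNAs of the mitochondrial genome, 9 were at least 0.5 higher and 0 lower, with a median of 0.63. Those RNAs are AT-rich (median GC content 37.1%), and with the trend removed the median was -0.12, so the direction flips. mt-Co1, the catalytic subunit of cytochrome oxidase, stood at 12.64 log2 CPM in the 5-day control, 12.61 with IAA, 13.60 in the 10-day control and 13.79 after withdrawal. Its drift of 0.96 ± 0.11 was 0.40 with the trend removed. Of 71 nuclear subunits 0 were at least 0.5 higher and 17 at least 0.5 lower, with a median of -0.16 (-0.07). Uqcrq, a complex III subunit, was the only one past 1, at 7.43 and 6.36 (-1.07 ± 0.10).

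Ribosomal protein genes were near the middle of the transcriptome. Of 83, 3 were at least 0.5 higher and 9 at least 0.5 lower, with a median of -0.07 (0.02 with the trend removed). Rplp2, an acidic stalk protein, stood at 10.14 and 9.04 (-1.10 ± 0.09). Rps12 stood at 4.95 in the 5-day control and 6.68 in the 10-day control (1.73 ± 0.19), and Rpl10 was at 0.92 ± 0.14. Both have processed copies elsewhere in the genome, and the tables carry 1 transcript per gene, so these values are uncertain.

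**Figure D4:**
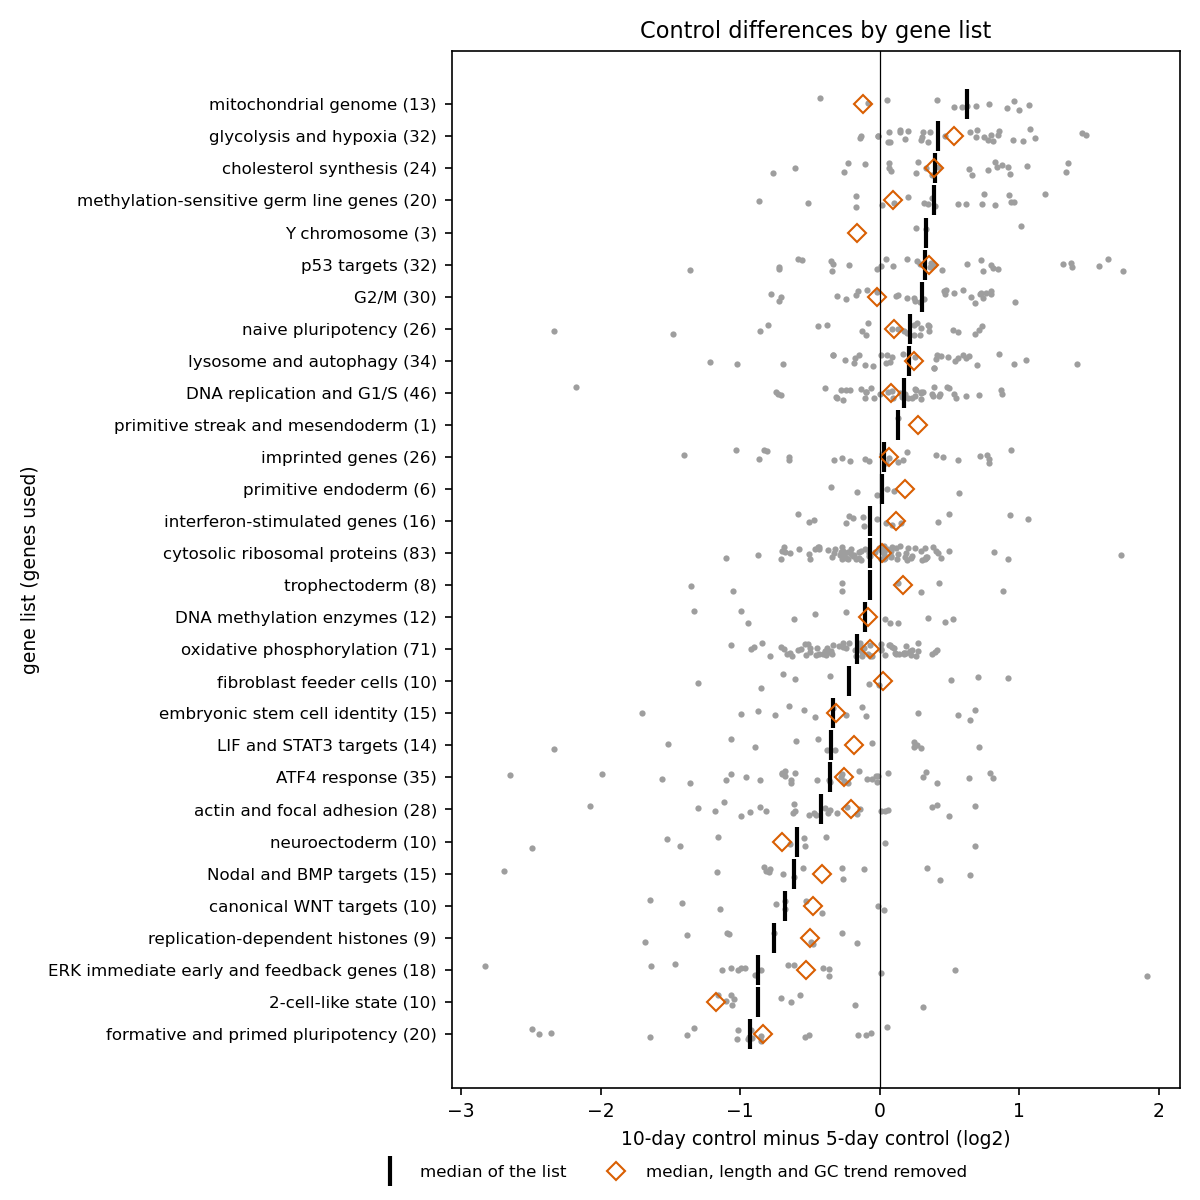
Drift (10-day minus 5-day control, log2, horizontal) of the used members of each of the 30 gene lists (grey points, with the number used in brackets), the list's median (black bar) and its median with the length and GC trend removed (orange diamond). Formative genes have the lowest median at -0.93 and mitochondrial RNAs the highest at 0.63, which becomes -0.12 with the trend removed.

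Cell cycle genes were followed in a G2/M list and a replication list. G2/M genes had a median of 0.30 over 30 members (11 at least 0.5 higher, 3 lower), and -0.02 with the trend removed. Hmmr, a spindle protein, stood at 7.06 and 8.03 (0.97 ± 0.08), Mki67, the proliferation antigen, at 7.65 and 8.45 (0.80 ± 0.09), and Plk1, a mitotic kinase, was at -0.78 ± 0.07. Replication and G1/S genes had a median of 0.17 over 46 (0.08), with 1 past -1: Ccnd2, a D-type cyclin, stood at 6.32 in the 5-day control, 6.28 with IAA, 4.15 in the 10-day control and 4.05 after withdrawal (-2.17 ± 0.19, and -2.40 with the trend removed). The related cyclins Ccnd1 and Ccnd3 were at -0.75 and -0.27. Of 28 replication-dependent histone genes 9 passed the level limit, and 4 of these were at least 1 lower, led by Hist1h3c (-1.68 ± 0.27). These histone RNAs lack a poly(A) tail for the most part and are nearly alike in sequence, so their levels in a poly(A) library are uncertain.

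Markers of cells other than pluripotent stem cells were looked for in both controls. Of 24 fibroblast feeder markers 10 were used, and the median drift was -0.22 (0.02 with the trend removed, 0.24 with the folds read the other way). The fibroblast collagen Col3a1 stood at -3.33 log2 CPM in the 5-day control and -3.75 in the 10-day control, and the proteoglycan Dcn at -4.83 and -4.55, both far under the level limit. Col1a2 stood at -0.34 and -0.76. The feeder markers that passed the limit went both ways, with 4 at least 0.5 lower and 3 at least 0.5 higher. The collagen Col1a1 stood at 1.55 in the 5-day control and 0.71 in the 10-day control (-0.85 ± 0.29), but at 1.59 after withdrawal. Tagln, a smooth muscle actin-binding protein, was at -1.30 ± 0.17, while Fn1, a matrix protein stem cells also make, was at 0.70 ± 0.11 and Pdgfrb at 0.92 ± 0.26.

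Neuroectoderm markers had a median of -0.59 over the 10 of 23 used (-0.70), with 7 at least 0.5 lower and 1 at least 0.5 higher (0.68). The lowest was Sox3 (-2.50 ± 0.23), which is also on the formative list. Pax6, a neural homeobox factor, stood at 3.92 log2 CPM in the 5-day control, 3.54 with IAA, 2.49 in the 10-day control and 2.31 after withdrawal (-1.43 ± 0.23), Sox21 was at -1.52 ± 0.18 and the neuronal tubulin Tubb3 at -1.16 ± 0.12. Only 1 of 20 primitive streak genes, Eomes, passed the limit, at 0.13. Besides Sp5, Fgf8 stood at 0.07 ± 0.24 and -3.10 ± 0.52, and Gsc at 0.16 ± 0.26 and -1.76 ± 0.43, so these were lower at 10 days as well but are near or under the limit at both times. The other members below the limit are not described, so these genes do not stand for the list. Of 22 primitive endoderm markers 6 were used, with a median of 0.01 and Lama1 as the highest at 0.57 ± 0.09. Of 17 trophectoderm markers 8 were used, with the keratins Krt8 (-1.35 ± 0.15) and Krt18 (-1.05 ± 0.13) lower and Gata2 (0.88 ± 0.21) higher. The part of these cell types in the drift was not tested.

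Genes of the 2-cell-like state lay lower at 10 days. Of 25 listed, 10 were used, 5 were at least 1 lower, 8 at least 0.5 lower and 0 at least 0.5 higher, with a median of -0.87 that was -1.17 with the trend removed. Zscan4e stood at 4.24 log2 CPM in the 5-day control, 3.40 with IAA, 3.09 in the 10-day control and 3.31 after withdrawal (-1.16 ± 0.17). Zscan4d stood at 3.70, 3.01, 2.63 and 2.66 (-1.06 ± 0.20). On this reading both later groups were near the IAA cells of the earlier time, with the 5-day control above. The Zscan4 and Usp17l genes are near-identical copies whose reads a counter may split or drop, so single members are uncertain, and with the fold read the other way the list's median was -0.04.

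Germ line genes that promoter methylation silences had a median of 0.39 over 20 used (9 at least 0.5 higher, 2 lower), and 0.09 with the trend removed. Sohlh2, a germ cell factor, stood at 4.29 and 5.48 (1.18 ± 0.13) and kept 1.06. Dazl stood at 3.52 and 4.45 (0.93 ± 0.13) and kept 0.15, Sycp3 was at 0.96 ± 0.09 and kept 0.28, and Hormad1 was at 0.94 ± 0.09 and kept 0.15. Maintenance methylation genes were level, with Dnmt1 at 0.07 and Uhrf1 at 0.04.

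Actin and adhesion genes had a median of -0.42 over 28 (12 at least 0.5 lower, 1 higher), and -0.21 with the trend removed. Myl9, a myosin light chain, stood at 4.33 and 2.25 (-2.08 ± 0.19), Zyx, a focal adhesion protein, at 4.32 and 3.21 (-1.11 ± 0.13), and Srf, the factor that drives many of them, at 6.60 and 5.42 (-1.18 ± 0.10), of which -0.22 remained. Imprinted genes had a median of 0.03 over 26 (-0.41 with the folds read the other way), with Phlda2 at -1.40 ± 0.08 and Kcnq1ot1 at 0.94 ± 0.13 as the ends. Interferon-stimulated genes had a median of -0.07 over 16, with Stat2 at 4.59 and 5.65 (1.06 ± 0.12) and H2-D1 at -0.59 ± 0.13.

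Among the autosomes and the X, median drift ran from -0.17 on chromosome 7 (926 genes) to 0.30 on the X (383 genes). With the composition trend removed the medians of the autosomes and the X lay between -0.04 and 0.04. Of the Y genes of a male line, Ddx3y stood at 1.67 and 2.69 (1.01 ± 0.23, and 0.17 with the trend removed), with Eif2s3y at 0.33 and Kdm5d at 0.26, so the Y chromosome was expressed in both controls.

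**Figure D5:**
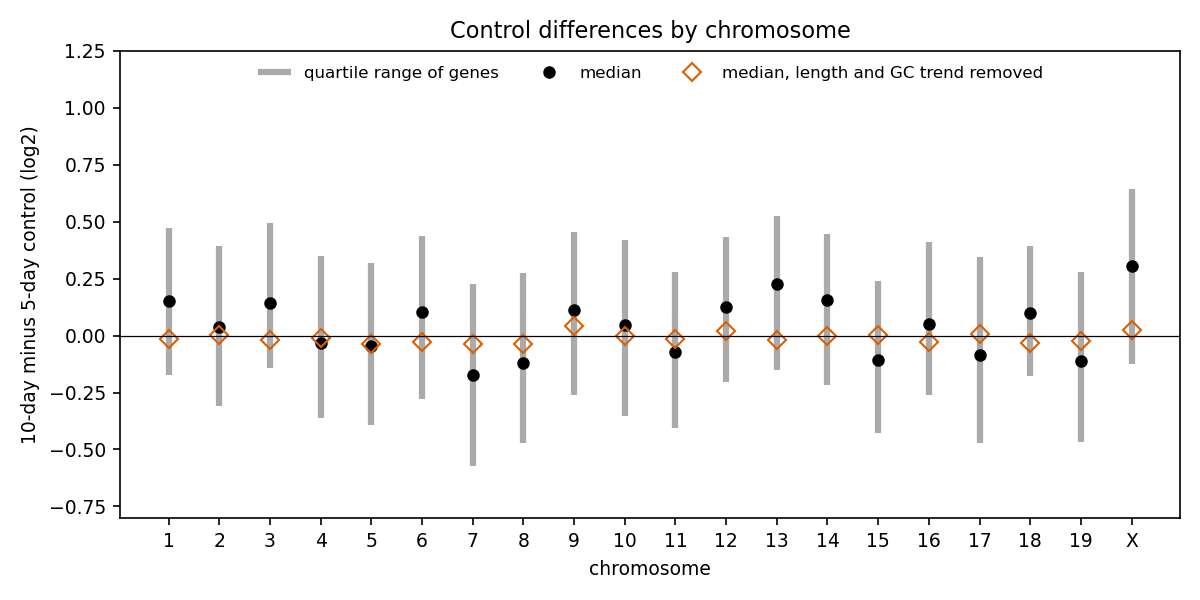
Median drift (10-day minus 5-day control, log2) of the used genes of each autosome and the X (black points, with the quartile range as grey bars) and the median with the length and GC trend removed (orange diamonds). The black medians run from -0.17 to 0.30 and the orange ones from -0.04 to 0.04.

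Because the direction of the deposited folds is not stated, genes were also counted that lay apart at the 2 times in all 4 groups, which holds however the folds are read. Both later groups were at least 1 log2 above both earlier ones in 354 genes (3.1%) and at least 1 below in 270 (2.37%). The widest gaps downward were in Id3 (2.70), Cebpb (2.65), Myc (2.61), Tcf15 (2.49) and Prr7 (2.41). The widest upward were in Sptbn1 (2.64), Nlrp12 (2.58), Ccng2 (2.37), A2m (2.36) and Mbnl2 (2.33).

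The level limit leaves genes out on both sides: 366 genes passed it at 5 days only and 443 at 10 days only. Just inside it at 10 days were Klrg2 (-0.57 ± 0.26) and Nt5e (-0.54 ± 0.28), and just inside at 5 days Olfr975 (0.89 ± 0.26). Just outside were Plekhg4 (0.37 ± 0.28), Rpl3l (-0.33 ± 0.29) and Slc25a43 (-0.00 ± 0.28).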

How the data were processed

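The 2 deposited tables, 1 per time, are the authors' own comparisons in the layout of limma's results, per the file headers. The authors deposited a log2 fold and a mean level in log2 CPM for each gene, a moderated t statistic and log-odds as scores, a p-value with its adjusted p-value, transcript lengths, and GC content as a fraction. No header or label names the aligner, counter or build. The geometric mean depth was estimated at 23.3M reads in the 5-day table and 21.2M reads in the other. It was read from the commonest of the lowest mean levels, assumed to be genes with 1 read in 1 library and an added count of 0.5.

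Tables were joined on transcript ID. The drift, its implied SE (fold over t) and the lists were computed with Python 3.11.15, numpy 2.4.6 and pandas 2.3.3, and tested on simulated data. The composition trend was a regression spline on length and GC content. Names matched 18749 and 18696 IDs, and 27 symbols turned into dates were restored. Coordinates are GENCODE M21 (GRCm38) and coding sequences were read for 10868 genes.

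The members and lists were chosen with earlier results of these data known. Marked for naming were the 12 largest drifts in each direction of at least 3 implied SEs and up to 4 members of at least 0.5 per list. Also marked were the stem cell identity genes, the 8 widest gaps in each direction, Rack1, Rps26 and 3 genes on each side of the limit. Not all of the marked genes are described above, for example Ndufs7, Atp5d, Uqcr11 and Rpl36. Other names were chosen after their values were seen. Replicate numbers in the labels could not be used.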

Additional observations from a re-analysis of the deposited data

How the results depend on the processing

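No paired analysis was possible because the deposited tables hold no values of single libraries; leaving out each replicate and the replicate block were not run for the same reason. No setting turned the sign of any of the 83 named genes with a drift of at least 1; 30 were under 1 with the length and GC trend removed and 15 with the folds read the other way. Counts of genes higher and lower by at least 1, 508 and 426, became 293 and 280 at a mean of at least 3, 867 and 808 with the folds read the other way, 250 and 199 with the trend removed, and 79 and 84 at a difference of 1.5. Among list medians, the withdrawn cells in place of the 10-day control gave -0.55 for stem cell identity, 0.17 for feeder cells, -0.42 for WNT, -0.34 for oxidative phosphorylation and -0.22 for ribosomal proteins. The folds read the other way gave 0.81 for naive, -1.58 for formative, -0.04 for 2-cell-like, -0.18 for primitive endoderm, -0.98 for neuroectoderm, 0.24 for feeder, 0.16 for LIF, -0.05 for p53, 1.06 for mitochondrial, 0.45 for G2/M, -0.41 for imprinted and -0.23 for actin genes. The mean over all 6 libraries of each time gave 0.52 for naive, -1.22 for formative, -0.43 for 2-cell-like, -1.03 for neuroectoderm, -0.04 for LIF, 0.06 for p53, 0.56 for cholesterol and -0.21 for imprinted genes. Removing the trend gave 0.18 for primitive endoderm, 0.09 for germ line, -0.53 for ERK, -0.19 for LIF, -0.48 for WNT, -0.12 for mitochondrial, -0.02 for G2/M, -0.21 for actin and -0.16 for Y genes. A mean of at least 3 gave -1.05 for trophectoderm. A mean over both tables of at least 1, chosen after seeing the data, kept 11837 genes, gave 620 and 512, and moved 1 list, primitive streak, to -1.79 by letting Sp5 in. The cause of these changes was not tested, apart from the fewer or more genes a limit leaves.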

Other observations

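Zinc finger genes with a Zfp symbol, looked at after their values were seen, lay higher in the 10-day control. Of 326 used, 57 (17.5%) were at least 1 log2 higher against 4.45% of all used genes. At least 1 lower were 16 of the 326, against 3.73% of all used genes, and the median drift was 0.43. Their transcripts had a median GC content of 44.1%, and with the length and GC trend removed the median drift was 0.07. By quartile of mean level, the median drift of all used genes was 0.10, 0.06, 0.01 and -0.06 from the lowest to the highest quartile. By quartile of transcript length it was -0.15, 0.00, 0.05 and 0.19 from the shortest to the longest. Unlike for GC content, the authors' median folds within each time had the same order. From the shortest to the longest quartile they ran from -0.11 to 0.05 at 5 days and from -0.10 to 0.08 at 10 days. From the lowest to the highest level they ran from 0.06 to -0.08 and from 0.03 to -0.03.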
